A study of Mus musculus with 15 samples.

Results

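Liver tumours were set against non-tumorous liver of the same animal in 4 Mdr2-knockout mice. Of the 15 arrays in the study, 10 belong to this comparison, and they were chosen by the mouse number in the sample labels. Mice 3 and 4 each gave 1 tumour, mice 5 and 6 each gave 2 (5-1 and 5-2, 6-1 and 6-2), and all 4 gave a piece of non-tumorous liver. All animals of the study were 16 months old. The mice compared here were homozygous for the Mdr2 knockout, so the tumour and the tissue it is compared with carry the same genotype. The other 5 arrays, livers of knockout mice 1 and 2 and of 3 heterozygous Mdr2-KO mice, enter no paired difference. Their levels are quoted below, they count toward the filter on low signals and the added constant, and livers 1 and 2 also enter where all 6 knockout livers are named.

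Mdr2, now named Abcb4, is the canalicular pump by which hepatocytes put phosphatidylcholine into bile. Without it bile salts are not held in mixed micelles and injure the bile ducts, and the liver of the mouse goes through chronic inflammation and later forms tumours. Each such tumour grows as its own lesion in that inflamed liver, so tumours of 1 mouse need not be alike.

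Total RNA of each sample was measured on 1 Affymetrix array, as 1 signal per probe set on a linear scale, and 9528 genes were tested. Median signals of the 15 arrays lay between 35.8 in tumour 4 and 51.2 in tumour 5-1, and the part of this in the results below was not tested. Differences below are tumour minus liver of the same mouse in log2 of the signal plus 9.1, a constant that makes differences of dim genes smaller than the ratio of their signals. For mice 5 and 6 the log2 values of both tumours were averaged first. Means over mice are given ± SE, moderated across genes by limma, with n = 4 mice. The samples of 1 mouse are separate pieces of tissue, each measured once. The 5 hepatocyte markers Alb, Apoa1, Ttr, Hnf4a and Cps1 had a summed signal between 44669 and 55654 in the tumours and between 50926 and 65512 in the matched livers. In bulk tissue fewer cells of a type and less RNA per cell cannot be told apart. As a sign of RNA quality, the 3' to 5' signal ratio of actin was lower in the tumour in 3 of 4 mice (mean log2 difference -0.28 ± 0.26 SD, exact two-sided sign-flip permutation p = 0.25), and that of Gapdh in 4 of 4 (-0.076 ± 0.054 SD, exact p = 0.125, the smallest p that 4 mice allow). Adjusted over both ratios the p was 0.25 for each, and the part of RNA quality in the results below was not tested.

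Abcb4, the targeted gene, had signals of 268.9, 177.4, 242.1 and 305.7 in livers 3, 4, 5 and 6. The tumours read 397.1 in tumour 3, 681.1 in 4, 122.5 in 5-1, 237.7 in 5-2, 173.6 in 6-1 and 200.2 in 6-2. The tumour was the higher of both tissues in mice 3 and 4 and the lower in mice 5 and 6 (mean log2 difference 0.32 ± 0.39 SE). The heterozygous livers read 1006.4, 778.9 and 886, above all 12 knockout samples, as the labels have it. Its 1 probe set gave signal in the knockout samples too, and which part of the gene it covers is not given in the sources used here.

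The first question was which genes differ between tumour and liver across the mice. No gene passed: 0 of 9528, or 0%, had an adjusted p under 0.05 in limma (Benjamini-Hochberg over all genes), and the smallest adjusted p was 0.360. At an unadjusted p under 0.05 limma held 714 genes, 303 higher and 411 lower in the tumours. Treating the tumours and livers as independent groups also gave 0 called genes (811 at an unadjusted p under 0.05), and so did all 6 tumours against all 6 knockout livers with the mouse as a random block (879). Leaving out tumour 6-1, a choice made after the data were seen, gave 9 called genes, with limma adjusted p between 0.0110 and 0.0483. Ly6d, Gprc5b and Tubb2a were higher in the tumours, and Gdpd3, Gdf10, Tcf21, Nat8f1, Ntrk2 and C8b were lower. The tumour left out was the one closest to its own liver, so these calls give no independent support. Leaving out mouse 6 as a whole gave 2, Ntrk2 (-3.0) and Serpina12 (-3.13), both lower and with an adjusted p of 0.0182. The values that follow are therefore descriptions of these 4 mice. The limma p-values rest only on the spread between these mice and on a spread borrowed across all genes.

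The pairs differed in size. Over all genes the SD of the differences was 0.84 in mouse 3, 0.72 in mouse 4, 0.75 in mouse 5 and 0.51 in mouse 6. At least 2-fold apart were 18.9% of the genes in mouse 3, 14% in mouse 4, 14.2% in mouse 5 and 6.28% in mouse 6. Mouse 6, whose 2 tumours were averaged, stood closest to its liver, and of its tumours 6-1 was the closer one, with 6.92% of genes at least 2-fold apart against 11.4% in 6-2. Tumour 5-1 was furthest from its liver, with 21.6%.

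The 4 mice shared few of these differences. Of all genes, 3586 (37.6%) were at least 2-fold apart in at least 1 pair, but most of them in 1 pair alone: 1704 were 2-fold higher in 1 pair, 348 in 2, 51 in 3 and 6 in all 4. On the lower side the numbers were 1593, 359, 63 and 2. A further view is that 540 genes (5.67%) were 2-fold higher in the tumour of 1 mouse and 2-fold lower in that of another. Across the 9528 genes, which are not independent replicates, the Pearson correlation of the differences between any 2 mice, which share no sample, ran from 0.00029 (mice 4 and 6) to 0.18 (mice 3 and 6).

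In direction alone, 630 genes were higher in the tumour of all 4 mice, 6.61% of those tested, and 815 were lower, 8.55%. At 1.5-fold or more in every pair there were 24 genes on the higher side (0.252%) and 34 on the lower side (0.357%). At 2-fold or more there were 6 on the higher side (0.063%), Rnf144a, Ly6d, Wdpcp, Dpysl4, Esm1 and Tuba8, and 2 on the lower side (0.021%), Dpep1 and Gdpd3. Values on either side of the 2-fold limit lay close together: the smallest of the 4 differences was 1.06 for Esm1 and 1.05 for Tuba8, just inside, and 0.95 for Dysf and 0.91 for Phlda2, just outside, while below 0 it was -1.35 for Gdpd3 inside and -0.95 for Gdf10 outside. Without tumour 6-1 the 2-fold counts were 12 and 12, and without tumour 6-2 they were 2 and 1.

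**Figure D1:**
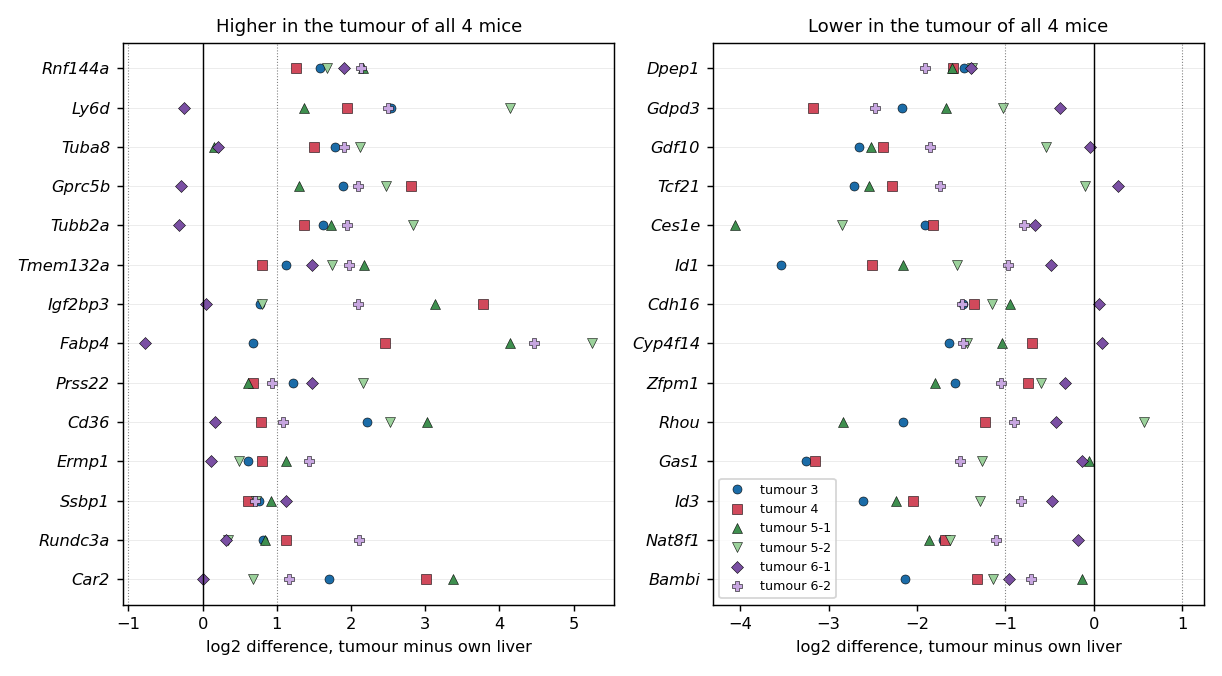
Differences of each of the 6 tumours to the liver of its own mouse (x axis, log2) for the 14 genes on the higher side and the 14 on the lower side with the largest smallest difference over the 4 mice (y axis). Dotted lines mark 2-fold; tumour 6-1 lies on the other side of 0 for 7 of the 28 genes, tumour 5-2 for 1 and the other 4 tumours for 0.

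Ly6d, a small surface protein anchored by a lipid, was the brightest gene with a 2-fold difference above 0 in all pairs. It had signals of 220.3, 272.6, 87.4 and 581.1 in livers 3, 4, 5 and 6, and of 1321.1, 1072.8, 239.3, 1692.9, 488.3 and 3340.3 in tumours 3, 4, 5-1, 5-2, 6-1 and 6-2. Tumour 6-1 alone was below its own liver, and tumour 5-1 was below 2 of the other livers, so the groups overlap although each pair mean points one way. The paired differences were 2.54, 1.94, 2.75 and 1.13 in mice 3, 4, 5 and 6, with a mean of 2.09 ± 0.28 SE, or 4.26-fold (limma adjusted p = 0.360). In the heterozygous livers Ly6d read 21.5, 2.5 and 4.6, below all 12 knockout samples.

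Rnf144a, a ubiquitin ligase of the RING-between-RING kind, was the only one of these genes at least 2-fold above its own liver in all 6 single tumours. It read 9.1, 22.4, 2.7 and 13.2 in livers 3 to 6 and 45.4, 66.2, 43.7, 28.6, 74.6 and 88.5 in tumours 3, 4, 5-1, 5-2, 6-1 and 6-2. The 4 matched livers lay below every tumour, while the livers of mice 1 and 2, at 42.6 and 51.8, lay among them. The mean difference was 1.69 ± 0.29 SE (limma adjusted p = 0.360). Esm1, a proteoglycan secreted by endothelium, was dim and reached between 13.4 and 64.2 in the tumours against 1.1 to 4.5 in all 6 knockout livers, with no overlap (mean difference 1.71 ± 0.40 SE). Esm1, Wdpcp and Dpysl4 were outside the rule for named genes, since their signals were low in some mice, and are named because they make up the count.

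Among the other genes on the higher side, Cd36, a fatty acid transporter, read 278.3, 443.9, 147.9 and 741.9 in livers 3 to 6 against 1328, 770.9, 1271.7, 897.2, 832.7 and 1576.8 in tumours 3, 4, 5-1, 5-2, 6-1 and 6-2 (mean difference 1.60 ± 0.36 SE). All 6 tumours lay above all 6 knockout livers, and the heterozygous livers at 51.4, 56.5 and 85.2 lay lowest. Fabp4, a fatty acid carrier of fat cells and macrophages, had the largest mean of the 14 (2.42 ± 0.53 SE), but its tumours ranged from 78 in 6-1 to 3279.8 in 6-2 and its matched livers from 61.4 to 225.8. Tubulin genes Tuba8 (1.37 ± 0.25 SE) and Tubb2a (1.52 ± 0.25 SE), the carbonic anhydrase Car2 (1.83 ± 0.35 SE), the receptor Gprc5b (1.87 ± 0.34 SE) and the fetal RNA-binding protein Igf2bp3 (1.9 ± 0.48 SE) followed. Tmem132a, Prss22, a serine protease, Ermp1, a protease of the endoplasmic reticulum, Ssbp1, which binds single strands of mitochondrial DNA, and Rundc3a had means between 0.75 and 1.40. Other probe sets gave the same direction of the mean for Fabp4, Cd36, Tubb2a, Igf2bp3 and Ssbp1 and the opposite one for Rundc3a (-0.03). For Cd36 and Tubb2a they were also higher in all 4 mice. For Ssbp1 the second probe set had 0.59, -0.0082, 0.30 and -0.10 in mice 3, 4, 5 and 6. In mouse 6 the second of Igf2bp3 (-0.085) and 1 of the others of Fabp4 (-0.32) were below 0.

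On the lower side, Dpep1, a dipeptidase that cleaves leukotrienes, was the most even gene, with differences of -1.47, -1.59, -1.49 and -1.65 in mice 3, 4, 5 and 6. Its signals were low, 53.9, 28.3, 32.2 and 53.9 in the livers against 3.3 to 14.9 in the tumours, without overlap. The heterozygous livers read 4.6, 6.7 and 3.6, inside the range of the tumours and below the knockout livers. On 4 of the 10 arrays Dpep1 was above the 40th percentile. Gdpd3, a lysophospholipase D, was bright. It read 2153.2, 1934.9, 2041.2 and 2316.5 in livers 3 to 6 and 473, 205.7, 633.4, 996, 1773.9 and 409.6 in tumours 3, 4, 5-1, 5-2, 6-1 and 6-2. The livers were close together, every tumour lay below its own liver, and tumour 6-1 was by far the nearest to it. The mean difference was -2.03 ± 0.31 SE (limma adjusted p = 0.360), and the heterozygous livers read 1791.1, 1536.2 and 1541.2.

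Several others on the lower side are known from connective tissue and from secreted signals. Tcf21, a transcription factor of fibroblasts and stellate cells, had a mean difference of -1.76 ± 0.33 SE, Gdf10, a ligand of the BMP family, -1.88 ± 0.32 SE, and Gas1, a surface receptor that binds hedgehog ligands, -1.97 ± 0.47 SE. Gene products of the hepatocyte were there as well: Ces1e, a carboxylesterase (-1.98 ± 0.38 SE), Cyp4f14, a P450 that shortens leukotriene signals (-1.07 ± 0.22 SE), and Nat8f1, an acetyltransferase (-1.45 ± 0.24 SE). Cdh16, a cadherin, Zfpm1, a GATA cofactor, and Rhou, a small GTPase, had means between -1.30 and -1.05. Id1, Id3 and Bambi, a decoy receptor of BMP signals, make up the rest of the 14. A second probe set was lower in all 4 mice for Zfpm1. For Rhou it was above 0 in mouse 6 (0.19), and for Gas1 in mouse 5 (0.13).

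Across all 6 knockout livers and all 6 tumours, 12 genes (0.126%) had every tumour above every liver and 54 (0.567%) had every tumour below. The first group held Cd36, Dysf, Esm1, Tmem132a, Gsta2 and Phlda3, and the second Id1, Id2, Id3, Hamp2, Dpep1, Nat8f1, Nfix, Inhbc and Pipox.

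Id proteins are helix-loop-helix proteins without a DNA-binding region that are switched on by BMP ligands through SMAD factors, and Hamp, which encodes hepcidin, the hormone of iron balance, is a BMP target of the hepatocyte. Gene lists here and below were chosen with earlier results of these data known, so their shares beside those of all genes only describe. A list of 27 measured genes of this response held 10 genes lower in the tumour of all 4 mice and 0 higher, beside 8.55% and 6.61% of all genes. Its median difference was -0.40, against -0.01 over all genes, and by mouse it was -1.15, -1.02, -0.17 and -0.25 in mice 3, 4, 5 and 6. In tumours 3 and 4, 16 and 14 of the 27 genes were at least 2-fold below the liver and 0 above, while of all 9528 genes 1037 and 830 were below and 762 and 504 above. In the other tumours the counts were small or on both sides. In tumour 5-1, 9 of the 27 were at least 2-fold above and 8 below, and in 5-2 the counts were 5 and 6. They were 1 and 0 in 6-1 and 1 and 2 in 6-2. Of all 9528 genes, 1261 were above and 794 below in 5-1, and 826 and 518 in 5-2. The same counts over all genes were 437 and 222 in 6-1 and 634 and 454 in 6-2.

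Id1 read 643, 297.9, 478.8 and 219.2 in livers 3 to 6 and 47.2, 45, 100.2, 157.2, 154.4 and 107.5 in tumours 3, 4, 5-1, 5-2, 6-1 and 6-2. All tumours were below all livers, heterozygous ones (224.5 to 280.8) included. The paired differences were -3.53, -2.50, -1.86 and -0.73 (mean -2.15 ± 0.39 SE, limma adjusted p = 0.383). Id3 followed the same order, with -2.62, -2.05, -1.77 and -0.65 (mean -1.77 ± 0.30 SE), and Id2 had -1.53, -1.47, -1.57 and -0.47 (mean -1.26). Mouse 3 or 5 had the largest and mouse 6 the smallest difference in each of these 3 genes.

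Hamp was among the brightest genes of the livers, at 8375.9, 8505.4, 11000.6 and 6781.1 in livers 3 to 6. Its tumours read 430.7, 2284.7, 5398.1, 4800.9, 7569 and 2663.4 in tumours 3, 4, 5-1, 5-2, 6-1 and 6-2. Tumour 6-1 alone lay above its own liver and tumour 3 lay far below all other samples. The differences were -4.25, -1.89, -1.11 and -0.59, and those of its paralog Hamp2, whose transcripts are nearly identical so that probes may not keep them apart, were -4.63, -2.94, -1.94 and -0.42. Smad7, an inhibitor that the pathway induces against itself, had -3.21, -1.96, -0.50 and -0.63, and Atoh8, a BMP-responsive transcription factor, -3.24 in mouse 5 and -0.05 in mouse 6. The ligand Bmp2, which liver endothelium makes, was lower in all 4 pairs (-1.18, -0.95, -0.89 and -0.47), while the ligand Bmp4 was 1.95 higher in mouse 5 and lower in mice 3 and 4.

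Hamp and Id2 lie in that list, point one way in all pairs and hold the 6-base motif GGCGCC, so their promoters are printed. The motif reads the same on both strands and is bound by SMAD factors. The sequences are from RefSeq on GRCm38.p6, run 5′ to 3′ along the gene's strand from 250 bases before to 50 bases after the start, and capitals mark the match. Hamp lies on the minus strand at chr7:30943980-30944279, with the match 109 bases before the start, and Id2 on the minus strand at chr12:25096043-25096342, with the match 231 bases before it.
Hamp: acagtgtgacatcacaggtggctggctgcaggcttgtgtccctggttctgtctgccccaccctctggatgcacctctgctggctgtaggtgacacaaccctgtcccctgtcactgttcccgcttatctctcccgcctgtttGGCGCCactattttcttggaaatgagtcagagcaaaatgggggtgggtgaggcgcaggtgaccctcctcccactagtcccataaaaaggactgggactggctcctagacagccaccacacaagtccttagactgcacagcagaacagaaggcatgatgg
Id2: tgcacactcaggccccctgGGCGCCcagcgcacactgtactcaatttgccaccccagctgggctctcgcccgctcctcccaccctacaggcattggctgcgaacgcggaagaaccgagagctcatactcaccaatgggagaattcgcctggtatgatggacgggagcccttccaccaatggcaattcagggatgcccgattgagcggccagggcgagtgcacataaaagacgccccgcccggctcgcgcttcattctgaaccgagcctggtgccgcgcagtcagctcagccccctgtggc
The motif was in the promoters of 9 of the 20 list genes that the table holds (10 of 23 promoters), among them Smad5, Bmpr1a, Tgfbr1 and Tgfbi, whose differences changed sign between mice, and in 11.9% of all 32851 promoters. Id1 and Id3, whose mean differences were larger than that of Id2, were not among the 9, through no match or no promoter entry. A match describes the letters and shows no binding.

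Markers of other cell types differed along with these genes in some of the mice. The stellate cell and myofibroblast list of 16 genes had medians of -1.47, -0.84, 0.29 and -0.30 in mice 3, 4, 5 and 6, with 5 members lower in all 4 pairs (31.2%, against 8.55% of all genes) and 1 higher (6.25%, against 6.61%). Reln, a stellate cell glycoprotein, had a mean of -1.50 ± 0.34 SE, Ecm1 -0.87 ± 0.22 SE, and Postn, periostin, 1.14 ± 0.31 SE. The summed signal of the 5 fixed markers of the type (Des, Acta2, Pdgfrb, Lrat and Reln) lay between 803.4 and 1859 in the livers and between 294.8 and 922.1 in the tumours. Reln alone read 545.7 to 1105.8 in these livers and 106.5 to 639.1 in the tumours, so the liver sums are mostly this gene. Each marker was above the 40th percentile on at least 1 of the 10 arrays.

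Of 24 genes of liver endothelium, 8 were lower in the tumour of all 4 mice (33.3%, against 8.55% of all genes) and 0 higher. Ntrk2, a neurotrophin receptor placed in this list, had signals of 901.9, 498.1, 824.7 and 459.2 in livers 3 to 6 and 85.8, 44.9, 114.5, 167.7, 518.1 and 169 in tumours 3, 4, 5-1, 5-2, 6-1 and 6-2. Tumour 6-1 was above its liver and the other 5 tumours were below every knockout liver (mean difference -2.40 ± 0.41 SE, limma adjusted p = 0.360). Clec4g, a lectin of sinusoidal endothelium, had -0.98, -3.47, -2.63 and -0.30 and Vwf -3.0, -1.84, -0.71 and -0.17. Cd34 and Emcn, found in capillaries of other kinds, read 1.49 and 2.36 in mouse 5. The 6 fixed markers summed to between 743.7 and 1042 in the livers and between 318.4 and 983.9 in the tumours.

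Bile duct genes were lower in all 4 pairs for 6 of 14 (42.9%, against 8.55%), with 0 higher. Krt19, a keratin of bile ducts, had -2.37, -1.33, -0.81 and -0.05, and Cldn3, a tight junction protein placed in this list, -1.47, -0.70, -0.73 and -0.16. Cldn3 read 1100.2 to 1549.5 in the matched livers, far above the duct keratin Krt7 (11.6 to 40.1), and which cells made it was not tested. The summed signal of the 4 fixed markers measured here was 27 in tumour 3 and 41.7 in tumour 4, below all matched livers (89.5 to 183.4), and 188.7 in tumour 5-1. These sums are low, and Krt7 was above the 40th percentile on 3 of the 10 arrays. The stellate, bile duct and BMP lists all had their lowest medians in mice 3 and 4, and the part of fewer stromal or duct cells in the BMP values was not tested.

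Matrix, macrophage and antigen presentation genes took opposite sides in different mice. The extracellular matrix list of 34 genes had medians of -1.32 and -0.84 in mice 3 and 4, 0.93 in mouse 5 and -0.23 in mouse 6, with 20 genes at least 2-fold lower in mouse 3 and 16 at least 2-fold higher in mouse 5. Decorin (Dcn) was lower in all 4 pairs (-1.88, -2.43, -0.97 and -0.48) and the basement membrane collagen Col4a1 higher (0.63, 1.10, 2.74 and 0.17). For 26 macrophage genes the medians were -0.22, -1.34, 0.73 and 0.22. Of these genes 18 were at least 2-fold lower in mouse 4 and 11 at least 2-fold higher in mouse 5. Over all 9528 genes, 1037 were at least 2-fold lower in mouse 3, 830 lower in mouse 4 and 870 higher in mouse 5. Clec4f, a marker of resident Kupffer cells, was low in both tumour 4 (36.7, against 517.5 in its liver) and tumour 5-1 (28.4, against 379). The 6 MHC class II genes had medians of -0.48, -1.13, 1.76 and 0.14. Fixed macrophage markers summed to 1166 in tumour 4, below the 3279 to 5158 of the livers, and to 7278 in tumour 5-1 and 6870 in tumour 6-2, above it.

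**Figure D2:**
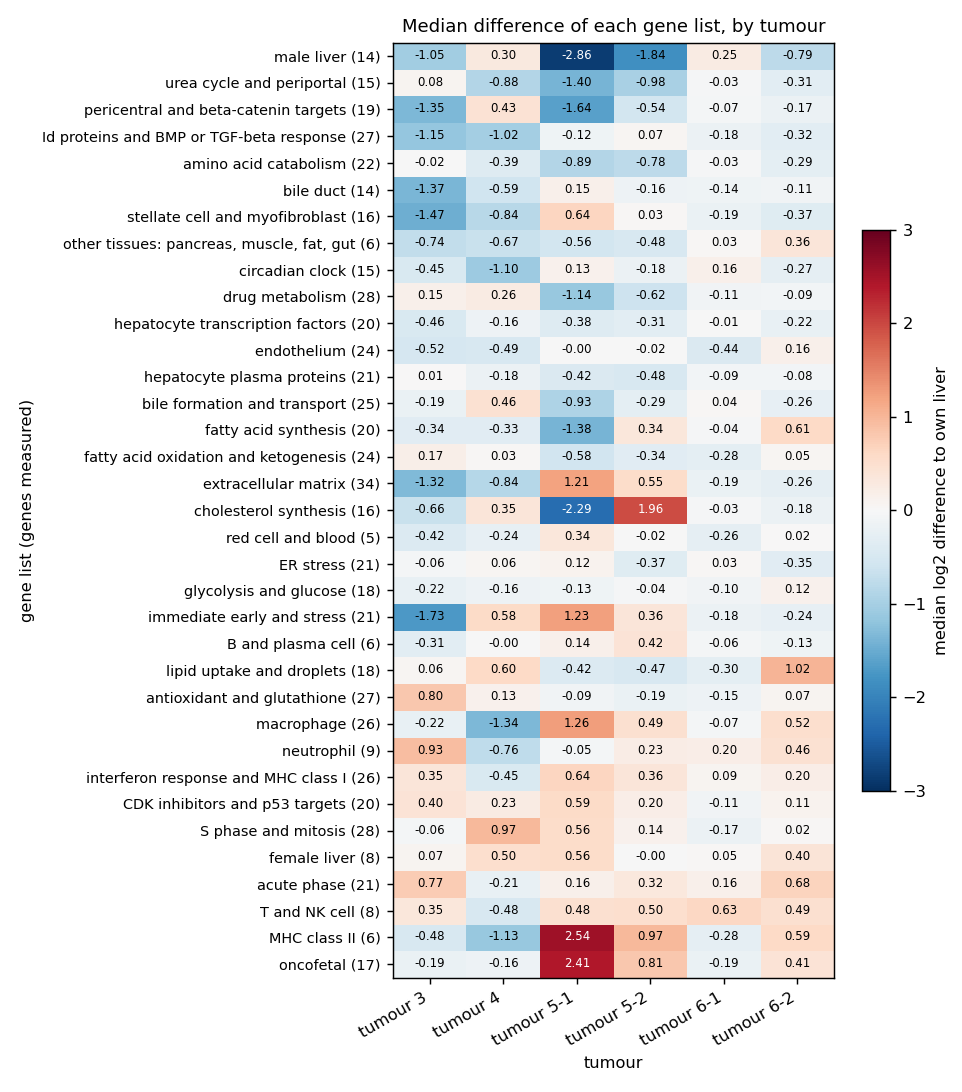
Median log2 difference to the own liver (colour and number) for 35 gene lists (rows, number of genes measured in brackets) in the 6 tumours (columns), sorted by the mean over tumours. The cholesterol synthesis list reads -2.29 in tumour 5-1 and 1.96 in tumour 5-2, and the oncofetal list 2.41 and 0.81.

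Functions of the hepatocyte also differed by mouse. Pericentral genes, which depend on Wnt and beta-catenin signals around the central vein, had medians of -1.35, 0.43, -0.95 and -0.15 in mice 3, 4, 5 and 6. Cyp2e1, an ethanol-oxidising P450, read 846.4 in tumour 3 and 812.1 in tumour 5-1, against 7926.2 and 8497.9 in their livers, and 10010.3 in tumour 4, against 7759.6. Cyp7a1, the enzyme that sets the rate of bile acid synthesis, was 2.50 higher in mouse 4 and differed by -2.64 in mouse 3. Rhbg, an ammonium transporter, and Nkd1, a Wnt antagonist, were lower in all 4 pairs, at means of -1.24 ± 0.42 SE and -0.99 ± 0.42 SE.

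The list of genes known for a male-type pattern in mouse liver had medians of -1.05, 0.30, -2.59 and -0.42. The labels do not give the sex of the mice. Mup3, a major urinary protein, read 6290.8, 3525.8, 4551.4 and 9762.3 in livers 3 to 6 and 82.6, 2596.5, 40.4, 1465.3, 8461.8 and 608.8 in tumours 3, 4, 5-1, 5-2, 6-1 and 6-2. Every tumour lay below its own liver, tumours 4 and 6-1 only slightly so, and urinary protein genes are near copies of each other that probes may not keep apart. A second probe set of Mup3 gave differences of 0.15, -0.21, -0.32 and 0.0016, against -6.10, -0.44, -4.08 and -2.09 for the first, so the size for this gene is uncertain. Amino acid breakdown had 7 of 22 genes lower in all pairs (31.8%, against 8.55%) and 0 higher. Tat, which degrades tyrosine, had -2.25, -1.18, -2.40 and -0.33 (mean -1.54 ± 0.34 SE), and Agxt, which disposes of glyoxylate, read 7 in tumour 4 against 903.2 in its liver and 801.8 in tumour 3 against 848.2.

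In bile formation, Slc22a7, an organic anion transporter, was lower in all 4 pairs (-1.71, -4.13, -2.26 and -0.62) and Abcb1a, a drug efflux pump related to Abcb4, higher (2.04, 1.60, 1.69 and 0.41). Akr1d1, a reductase of bile acid synthesis, was also higher in all 4 (1.88, 1.23, 1.28 and 0.25). Of the 25 genes of the list 2 were higher and 3 lower in all pairs, shares near those of all genes. Plasma proteins of the hepatocyte had list medians of 0.01, -0.18, -0.40 and -0.06, lowest in mouse 5. There, 17 of 21 members were lower in tumour 5-1 and 16 in 5-2, while the median over all genes was 0.11 and 0.03. In all pairs 3 members of the list were lower (14.3%, against 8.55%) and 1 higher (4.76%, against 6.61%). Among the lower ones was F2, prothrombin (-0.42 ± 0.20 SE).

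Antioxidant genes held 4 of 27 higher in all pairs (14.8%, against 6.61% of all genes) and 0 lower. Among the 4 were Gsta2 (0.98 ± 0.24 SE) and Srxn1, sulfiredoxin (1.09 ± 0.26 SE). In mouse 3, 9 of the list were at least 2-fold higher, beside 762 of all 9528 genes. CDK inhibitors and p53 targets held 5 of 20 higher (25%, against 6.61%), among them Cdkn1a, the p21 inhibitor (1.83, 1.51, 0.96 and 0.16), Cdkn2d (0.80 ± 0.27 SE) and Phlda3 (0.79 ± 0.22 SE). Another 2 were lower (10%, against 8.55%), among them cyclin D1, Ccnd1 (-0.74 ± 0.27 SE). S phase and mitosis genes had medians of -0.06, 0.97, 0.28 and -0.10. Of the 28, 14 were at least 2-fold higher in mouse 4 (504 of all 9528 genes) and 9 in mouse 5 (870 of all). In mice 3 and 6 the numbers were 3 and 1 (762 and 441 of all). Ube2c, a mitotic ubiquitin enzyme, was the only member higher in all pairs (0.98 ± 0.30 SE), or 3.57% of the list against 6.61% of all genes. The replication genes Mcm2 (-0.45 ± 0.23 SE), Mcm3 (-0.78 ± 0.36 SE) and Tk1 (-0.45 ± 0.20 SE) were lower in all pairs, or 10.7% against 8.55%, and a second probe set of Mcm2 had a mean of 0.047. Circadian genes held 5 of 15 lower in all pairs (33.3%, against 8.55%), among them Per3 and Tef. In mouse 4, 8 of the list were at least 2-fold lower, beside 830 of all 9528 genes. For Per3 (mean -0.64) the other probe sets gave means of 0.13 and -0.53. The hour at which each tissue was taken is not given in the sources used here.

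Immediate early genes, which respond within minutes to injury or handling, had medians of -1.73, 0.58, 0.78 and -0.22. Fos read 1001.8 in liver 3, against 82.4 to 270.1 in the other 5 knockout livers, and 17.6 in tumour 3. Thus the difference of -5.24 in mouse 3 joins a high liver with a low tumour, and in mouse 4 the difference was 2.98. Of the 21 genes, 15 were at least 2-fold lower in mouse 3 and 0 higher, beside 1037 and 762 of all 9528 genes.

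Over all genes, 6.61% were higher and 8.55% lower in all 4 pairs. The remaining lists are given by their counts of members on each of these 2 sides. They were 3 and 2 of 20 for fatty acid synthesis, 1 and 3 of 24 for fatty acid oxidation, 3 and 1 of 18 for lipid uptake and droplets, 0 and 1 of 18 for glycolysis, 0 and 4 of 15 for the urea cycle and 0 and 4 of 20 for hepatocyte transcription factors, where Nfix had -1.11 ± 0.23 SE, with means between -1.07 and -0.0040 by its other probe sets. For drug metabolism they were 1 and 3 of 28, for ER stress 2 and 3 of 21, for acute phase proteins 1 and 1 of 21, for interferon response 2 and 0 of 26 and for female liver 1 and 0 of 8. The lower members were 26.7% of the urea cycle list, 20% of the transcription factor list and 10.7% of the drug metabolism list. The acute phase list had 4.76% on each side. T and NK cells gave 2 and 0 of 8, B and plasma cells 0 and 1 of 6, neutrophils 1 and 0 of 9, red cells 0 and 1 of 5 and genes of other tissues 0 and 1 of 6. Prss2, a trypsinogen of the pancreas, was the member of the last list, at 45, 41.1, 74.8 and 38.6 in the livers against 2.3 to 42.5 in the tumours, while its other probe set had a mean difference of -0.07 where this one had -1.28.

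The next question was which genes stood apart in a single pair. Of 9528 genes, 70 (0.735%) were at least 4-fold apart in 1 mouse and under 1.5-fold in the other 3, with 35 higher and 35 lower in that tumour. Mouse 3 had 31 of them (10 higher, 21 lower), mouse 4 had 16 (8 and 8), mouse 5 had 20 (14 and 6) and mouse 6 had 3 (3 and 0). In 45 of the 70 the tumour was further from the other tumours than the liver was from the other 5 knockout livers, and in 25 it was the liver. Single-pair genes of mouse 6 all belong to the second kind: Efnb3, an ephrin ligand, Fcho1, an endocytic adaptor, and Mest, an imprinted hydrolase, read 2.7, 5.8 and 3.2 in liver 6 and 26.5 to 54.7 in livers 3 to 5.

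**Figure D3:**
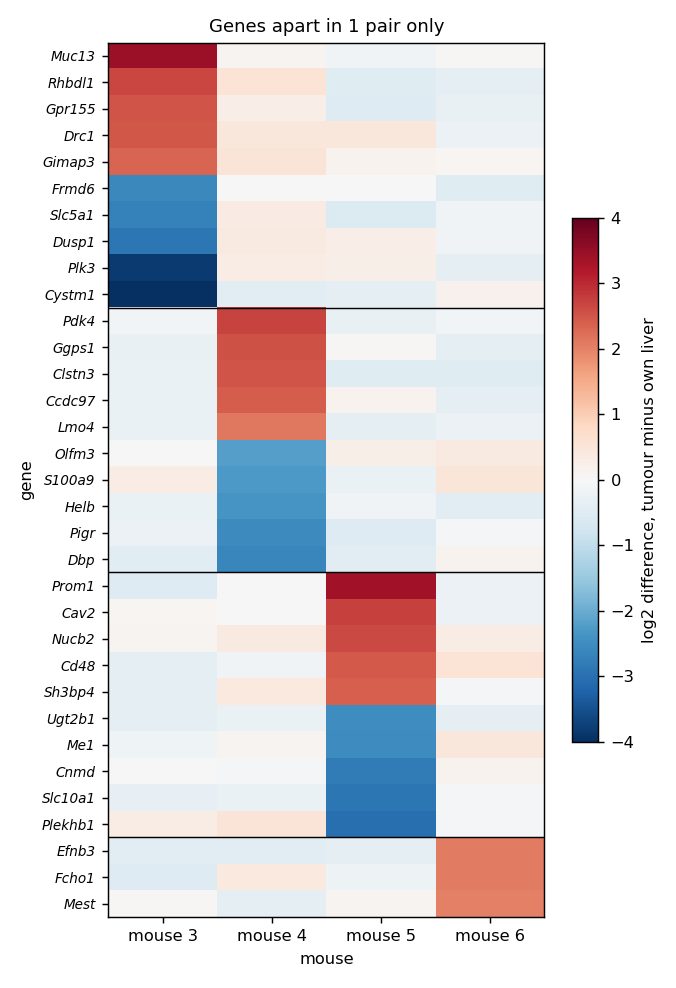
Log2 difference between tumour and own liver (colour) in the 4 mice (columns) for the 33 genes named from those at least 4-fold apart in 1 pair and under 1.5-fold in the others (rows, grouped by that mouse). Cystm1 in mouse 3 had the largest difference, -4.82, and mouse 6 had 3 genes.

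In mouse 3, Cystm1, a small membrane protein, read 611.5 in the liver and 12.9 in the tumour, while the other 5 tumours read 165.3 to 580.6. Plk3, a stress kinase, read 171.7 and 3.5 (the other tumours 46.6 to 151.5), and Frmd6, a scaffold of Hippo signalling, 95.9 and 8.4. Muc13, a transmembrane mucin, read 3.5 in liver 3, against 15.7 to 35.5 in the other knockout livers. In tumour 3 it read 127, against 17.4 to 38.8 in the other tumours, so its difference joins a low liver with a high tumour. For Dusp1, a phosphatase of MAP kinases (-2.90), the liver was the sample apart, at 1320.1 against 248.9 to 348.9 in the other matched livers. Livers 1 and 2 read 200.6 and 641.8.

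In mouse 4, Pdk4, which limits the use of glucose in mitochondria, read 41.5 in the liver and 322.1 in the tumour. Dbp, a transcription factor driven by the clock, read 1867.4 and 298.1, and Pigr, which carries IgA into bile, 3034 and 510.1. A second probe set of each gave -2.39 for Dbp and -2.23 for Pigr. For Ggps1, Ccdc97 and Lmo4 the low value lay in liver 4 (1.3, 8 and 6), not in the tumour.

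In mouse 5 both tumours can be compared with the same liver, and for all 20 genes both were at least 2-fold apart on 1 side, for 10 at least 4-fold. The genes were picked by the mean of these 2 tumours against that liver, so this likeness is largely built in. For 7 of the 20 the liver was the tissue further from the others. Slc10a1, the bile salt importer NTCP, read 3438.3 in liver 5, 153.9 in tumour 5-1 and 1331.3 in 5-2, against 2422.2 to 4029.7 in the other tumours. Plekhb1 read 263.8 in the liver and 5.3 and 69.7 in tumours 5-1 and 5-2, and Me1, malic enzyme, 1441.2, 103.3 and 569. Prom1, a surface protein of progenitor cells, had its low value in the liver (5.8, against 52.4 to 111.2 in livers 3, 4 and 6). Of the 33 genes named here, 10 had another probe set and 5 of these showed at least 2-fold on the same side in that mouse: Dbp, Pigr, Olfm3, Slc10a1 and Me1. Slc5a1, Ggps1, Ccdc97, Helb and Cav2 did not.

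The third question, which mice 5 and 6 allow, was how far tumours of 1 mouse are alike. Tumours 5-1 and 5-2 were at least 2-fold apart in 15.8% of genes and at least 4-fold apart in 270 genes (126 higher and 144 lower in 5-1). Tumours 6-1 and 6-2 were at least 2-fold apart in 9.77% and at least 4-fold apart in 113 genes (43 and 70). Each tumour is 1 array here, so these differences have no replicate check and no test. Both tumours of a mouse share its liver, which is why they are set against each other directly.

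**Figure D4:**
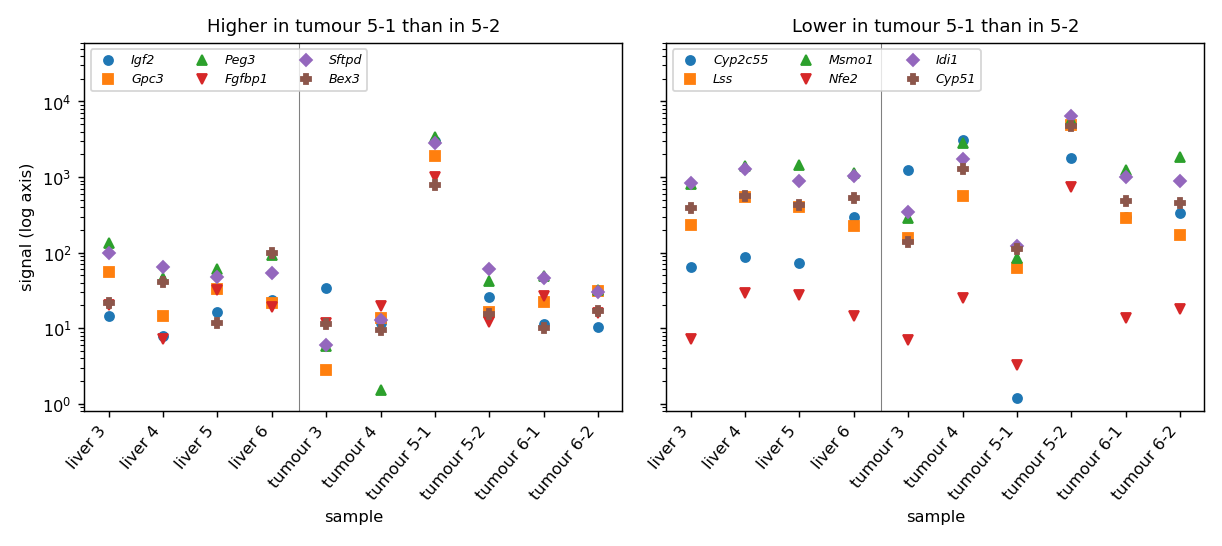
Signals on a log axis of the 6 genes most above (left) and most below (right) in tumour 5-1 relative to 5-2, in the 4 matched livers and 6 tumours (x axis). On the left tumour 5-1 stands alone, and on the right tumours 5-1 and 5-2 lie on either side of the livers for Lss, Msmo1, Idi1 and Cyp51.

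Tumour 5-1 held fetal and imprinted genes. Igf2, the fetal insulin-like growth factor, read 3042.9 in 5-1 and 26.1 in 5-2, and between 8 and 34 in the other tumours and all 6 knockout livers. Gpc3, a proteoglycan of fetal liver and of human hepatocellular carcinoma, read 1914.3 and 16.6, and Peg3, an imprinted zinc finger gene, 3406 and 42.2. Fgfbp1 (1002.6 and 12), the surfactant protein Sftpd (2840 and 60.2) and Bex3 (786.4 and 15.6) showed the same contrast. Afp, alpha-fetoprotein, was high in both tumours of the mouse, at 1367.7 in 5-1 and 724.1 in 5-2, against 3.6 in their liver and at most 33.2 in every other knockout sample. Over the 17 oncofetal genes the medians were 2.41 in 5-1 and 0.81 in 5-2. At least 2-fold above liver 5 were 12 and 7 of them, beside 1261 and 826 of all 9528 genes. Of the other 4 tumours only 6-2 had a median above 0, at 0.41.

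Cholesterol synthesis parted the same tumours. Lss, lanosterol synthase, read 403.3 in liver 5, 62.1 in tumour 5-1 and 4943.3 in 5-2, and Msmo1, Idi1 and Cyp51, enzymes of the same route, read 84.4, 122 and 110.6 in 5-1 against 5740.6, 6441 and 4710.6 in 5-2. Of 16 genes of the route, 14 were at least 2-fold below liver 5 in tumour 5-1 (794 of all 9528 genes). In 5-2, 15 were at least 2-fold above that liver (826 of all). The median difference between both tumours was -4.39, and Srebf2, which encodes the factor that activates these genes, differed by -0.56 alone. Averaged over both tumours, as the paired comparison does, the list had a median of 0.02 in mouse 5. In tumours 3, 4, 6-1 and 6-2 the medians were -0.66, 0.35, -0.03 and -0.18.

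Since these genes differed together between both tumours, the promoter of 1 of them is shown with a sterol response motif, TCACNCCAC on either strand, the kind of site that SREBP factors bind. Hmgcs1, the synthase at the head of the route, read 2951.7 in liver 5, 423.3 in tumour 5-1 and 11821.6 in 5-2. Its promoter from RefSeq lies on the plus strand of GRCm38.p6 at chr13:119690101-119690400, with the match (capitals) 137 bases before the start.
Hmgcs1: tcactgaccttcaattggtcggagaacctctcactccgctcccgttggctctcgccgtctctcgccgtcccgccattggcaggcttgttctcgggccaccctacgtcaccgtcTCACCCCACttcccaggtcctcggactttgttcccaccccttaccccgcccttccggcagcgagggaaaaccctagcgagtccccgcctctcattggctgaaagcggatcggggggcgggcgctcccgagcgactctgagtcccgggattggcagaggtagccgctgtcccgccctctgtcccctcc
It was the only one of 13 list genes in the promoter table with this motif between 250 bases before and 50 after the start, and 1.24% of all promoters had it. The missing matches say only that these letters are not in those windows.

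Other genes lower in 5-1 were the P450 Cyp2c55, with 1.2 against 1794.9 in 5-2, and Nfe2, a blood transcription factor, with 3.3 against 743.9, where 5-2 was the sample apart from all others. Fatty acid synthesis had a median of -2.0 between both tumours, with 14 of 20 genes at least 2-fold lower in 5-1, beside 722 of all 9528. The MHC class II list was 1.51 higher in 5-1 at the median.

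In mouse 6 the male-type genes separated the tumours. Hsd3b5, a steroid dehydrogenase, read 226.7 in the liver, 281.2 in tumour 6-1 and 2.2 in 6-2, Hsd3b2 589 in 6-1 and 32.1 in 6-2, and Mup3 8461.8 and 608.8. The list of male-type genes was 1.17 higher in 6-1 at the median, with 8 of 14 at least 2-fold higher, beside 484 of all 9528. On the other side were Fabp4 (78 in 6-1 and 3279.8 in 6-2), the cholesterol hydroxylase Cyp46a1 (48.1 and 821.8), the protease Tmprss4 (20.7 and 452.8), Elapor1 (15.4 and 280.2), Sdcbp2 (15.5 and 244.6) and the P450 Cyp4a14 (45.2 and 540.4). The lipid uptake and droplet list differed by -1.01 at the median, with 9 of 18 at least 2-fold lower in 6-1, beside 447 of all 9528. Malat1, a nuclear RNA, read 584.5 and 55.9 by 1 of its probe sets, and its other 3 gave smaller differences to the liver in this mouse (-1.23, -0.40 and -0.36, against -3.76).

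Genes of a chromosome can differ together in a tumour, so the differences were also summarised by chromosome, relative to the median of all genes of that tumour. Most medians lay near 0. Chromosome 18, with 224 genes, had a median of 0.66 in tumour 3 and 0.40 in tumour 4, while the other 4 tumours lay between -0.14 and 0.10. Chromosome 8 had -0.36 in tumour 3 and -0.41 in tumour 5-1, chromosome 16 had 0.31 in tumour 4, and chromosomes 4 and 12 had -0.32 and -0.22 in tumour 5-1. Tumour 5-2, from the same mouse as 5-1, had medians between 0.01 and 0.07 on those 3 chromosomes. Tumour 6-2 had 0.19 on chromosome 15, and in tumour 6-1 no chromosome passed 0.08 on either side. The arrays measure RNA, and DNA copies were not analysed here.

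**Figure D5:**
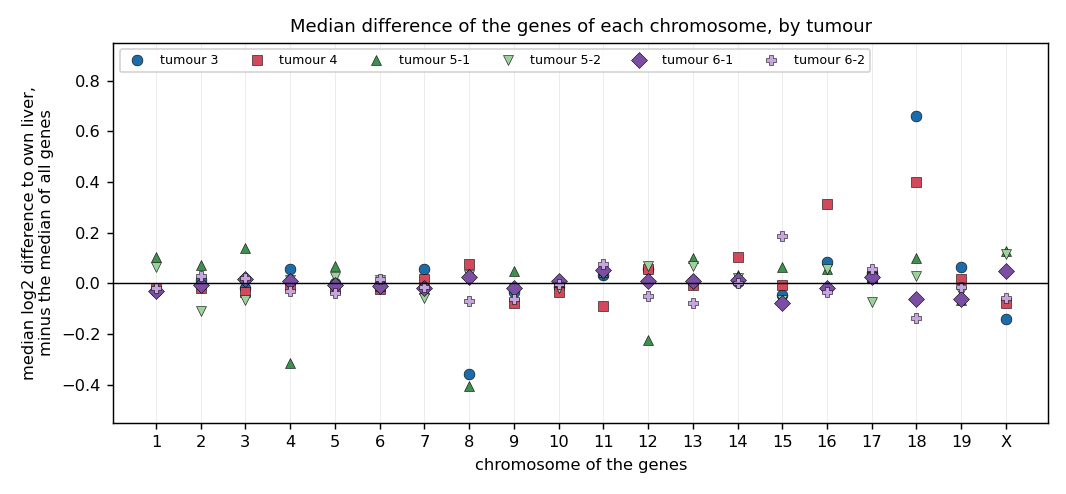
Median log2 difference to the own liver of the genes of each chromosome, minus the median of all genes (y axis), for chromosomes 1 to 19 and X (x axis) in the 6 tumours (symbols). Chromosome 18 stands out in tumours 3 and 4 and chromosome 8 in tumours 3 and 5-1.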

How the data were processed

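Total RNA of frozen tissue was extracted with Trizol and hybridised to 1 Affymetrix mouse array per sample, per the labels' protocols. The deposited table holds linear signal intensity values of 22690 probe sets, made by the authors with MAS5, per the submitters' processing notes; version and settings are not given in the sources used here. MAS5 scales each array, so a change shared by most genes would not be seen.

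From these, 64 control probe sets were left out, 9.1 (the 20th percentile of all signals) was added and log2 taken. Probe sets above the array's 40th percentile on at least 3 of 15 arrays were kept, those with 1 gene in the platform annotation were used (20393 had 1 gene, 691 several, 1606 were not listed), and the brightest per gene was taken, giving 9528 genes. Precision is limited by the number of arrays.

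Tumour minus liver of the same mouse was computed for 4 mice, with the mean of 2 tumours where a mouse gave 2, and tested with limma (intercept only, eBayes with a trend on mean level, Benjamini-Hochberg), a procedure also tested on simulated data. The pairing comes from the labels, which give tumour and liver of 1 animal 1 number. Deviations of tumour and liver from their group means correlated between -0.16 and 0.085 within the 6 own-mouse pairs and between -0.10 and 0.17 across the 30 others.

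The members and the 35 gene lists (626 of 776 distinct genes tested) were chosen with earlier results of these data known. Named genes were, apart from clone names and predicted models, the 14 in each direction with the largest smallest difference over the 4 mice and signal above the 40th percentile in every mouse, up to 5 in each direction per mouse among single-pair genes, up to 2 in each direction per list (or its brightest), 6 in each direction between tumours of 1 mouse, genes called in limma, and Abcb4. Others are named to fill a count or to describe a list, after their values were seen. The alternatives were another constant, filter, scaling, probe set rule, tumour choice or model, and leaving out mice or tumours. R 4.3.3, limma 3.58.1, statmod 1.5.0, Python 3.11.15, numpy 2.4.6, pandas 2.3.3, scipy 1.17.1 and matplotlib 3.10.9 were used.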

Additional observations from a re-analysis of the deposited data

Results flagged for a closer look

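In 205 groups of 6 values examined, 25 held 1 sample far from the others by Dixon's test. The test takes the values as independent, although the tumour groups hold both tumours of mice 5 and 6. Chance gives about 1 in 20 groups, but 21 of the 25 concern genes named because 1 pair or 1 tumour stood apart, so the count cannot be read against that rate. They belong to 23 results on genes and 2 on lists, and no cause was tested.

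Tumour 5-1 stood apart for 7 genes. It was high for Igf2 (3042.9, other tumours 10.3 to 34), Gpc3 (1914.3, others 2.8 to 31.4), Peg3 (3406, others 1.5 to 48.4), Fgfbp1 (1002.6, others 11.7 to 26.8), Sftpd (2840, others 6 to 60.2) and Bex3 (786.4, others 9.5 to 16.9). It was low for Slc10a1, the bile salt importer (153.9, others 1331.3 to 4029.7). Tumour 5-2 was high for Nfe2 (743.9, others 3.3 to 24.8).

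Tumour 3 was high for Muc13 (127, others 17.4 to 38.8) and low for Cystm1 (12.9, others 165.3 to 580.6) and Frmd6 (8.4, others 37.4 to 67.5). Its antioxidant and glutathione list had a median difference of 0.80, with -0.19 to 0.13 in the other tumours. Tumour 4 was low for Dbp (298.1, others 908.1 to 1634.2), for Helb (1.4, others 31 to 43.8) and for the median of the T and NK cell list (-0.48, others 0.35 to 0.63). Tumour 6-1 was high for Cdh16 (34.2, others 5.4 to 10.8), and tumour 6-2 was low for Malat1 (55.9, others 584.5 to 1800.7) and Cog8 (2.8, others 57.7 to 141.8).

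Among the livers, liver 3 was low for Cog8 (42.4, others 83.1 to 112.1) and liver 4 for Ggps1 (1.3, others 26.8 to 57.9). Liver 5 was low for Cd48 (5.5, others 30.1 to 46.9) and high for Cyp4f14 (1752.8, others 1155.5 to 1339.3) and Cnmd (77.1, others 30.5 to 41.8). Liver 6 was high for the P450 genes Cyp2c55 (297.2, others 65.3 to 112.8) and Cyp4a14 (172.3, others 15 to 25.7).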

How the results depend on the processing

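The count of 0 called genes held under 18 of 20 other settings, and ran from 0 to 9 when mice or single tumours were left out. Leaving out single tumours was chosen after seeing the data. Without the pairing, in a fit with no replicate block, limma called 0 genes, the same as with it. The 6 genes at least 2-fold higher in all pairs became 2 with the first tumour of mice 5 and 6 alone, 12 with the second alone, 14 with a constant of 1, 1 with a constant at the 40th percentile and 1 with a stricter filter, and ran from 2 to 25 when mice or tumours were left out. The 2 genes at least 2-fold lower became 11 with the second tumour alone, 15 with a constant of 1, 1 with the constant at the 40th percentile and 1 with the stricter filter, and ran from 1 to 42 with mice or tumours left out. The 70 single-pair genes became 131, 31 and 24 with the constant of 1, the constant at the 40th percentile and the stricter filter, and ran from 72 to 128 with mice or tumours left out, most without mouse 4. Many of these genes are dim, and the constant sets their fold. Leaving out a mouse also loosens these rules, which then cover fewer pairs. The 2-fold counts can then only stay or rise, and single-pair genes need fewer pairs under 1.5-fold. Of the differences of named genes, 1880 values kept their direction and side of the threshold, 9 passed the threshold and 4 changed sign: Nsdhl (0.16 with the second tumour alone, -0.95 to 0.19 with mice or tumours left out, above 0 without tumour 5-1), Abcb4 (-0.21 without mouse 4, up to 0.65 without mouse 6) and Itih3 (-0.060 with the mouse as a random block). For the single-pair genes, 413 values of the difference in their own mouse stayed within the spread and 95 did not. Of the list medians 585 values stayed within the spread of the mice and 10 did not. Except for the constant, the filter and the fewer pairs without a mouse, the cause was not tested.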
